A study of Homo sapiens with 6 samples.

Results

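The 29 genes described here make cholesterol and fatty acids or control that synthesis. They comprise 8 enzymes of the early steps from acetyl-CoA to squalene, 10 enzymes of the late steps from squalene to cholesterol, 5 regulators of the sterol response, the sterol carrier STARD4, and 5 genes of fatty acid synthesis. They were chosen by symbol from a table of 63086 genes, through their Ensembl identifiers, and all 29 were among the 14905 genes with enough counts to be tested. Messenger RNA had been sequenced from HEK293T, an established cell line from human embryonic kidney, in 2 groups of 3 libraries. Cells of the 0Q group grew without queuine in DMEM with dialyzed fetal bovine serum and Pen-Strep, and cells of the 100Q group grew in the same medium with queuine added. The labels give the queuine dose both as 100 nM and, in the treatment protocol, as 1 µM for 24 hours, so the dose behind the 100Q libraries is uncertain. The labels speak of triplicates without saying that these were separate cultures, so the p-values measure the spread between these libraries, which may be technical.

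Cells make cholesterol from acetyl-CoA through the mevalonate pathway, which builds squalene, and a second set of enzymes closes squalene into a ring and trims it into cholesterol. When sterol in the endoplasmic reticulum is low, SCAP carries the SREBP transcription factors to the Golgi, where they are cut and released to the nucleus to raise transcription of these enzymes. When sterol is plentiful, the INSIG proteins hold SCAP back. Queuine is a base that animals take from diet and gut bacteria, and it replaces guanine at the wobble position of 4 kinds of tRNA, those for aspartate, asparagine, histidine and tyrosine, where it becomes queuosine. These tRNAs read the codons NAC and NAT of those 4 amino acids, so the coding sequences of the pathway are shown before the values.

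A histidine box is written here as a histidine codon, any 2 codons and a pair of histidine codons. Membrane desaturases and hydroxylases bind iron in such boxes. The search read codons only, and the match in ELOVL6, an elongase, is not taken as an iron site. The motif was found in frame in 4 of the 29 coding sequences (13.8%), against 383 of the 12752 tested genes with a coding sequence (3.00%). The 4 genes were MSMO1 (hg38, chromosome 4, 165327667 to 165343164, plus strand), SC5D (chromosome 11, 121292681 to 121313410, plus strand), SCD (chromosome 10, 100347233 to 100364826, plus strand) and ELOVL6 (chromosome 4, 110045846 to 110199199, minus strand). Each stretch below is coding sequence from the GENCODE transcripts, 5′ to 3′, with its histidine codons in capitals and its first and last codon in the name. The stretches are shown because CAC and CAT, which code for the same residue, are both read by the queuosine tRNA.
MSMO1, codons 166 to 178: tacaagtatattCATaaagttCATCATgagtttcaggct
MSMO1, codons 246 to 258: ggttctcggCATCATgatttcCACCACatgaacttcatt
SC5D, codons 147 to 159: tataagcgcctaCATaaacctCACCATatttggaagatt
SC5D, codons 225 to 237: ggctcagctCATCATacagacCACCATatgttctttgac
SCD, codons 153 to 165: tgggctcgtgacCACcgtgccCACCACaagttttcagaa
SCD, codons 294 to 306: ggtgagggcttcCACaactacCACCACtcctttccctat
ELOVL6, codons 137 to 149: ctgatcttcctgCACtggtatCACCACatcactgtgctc
The boxes of SCD and ELOVL6 used CAC at all 3 histidines of the motif. The first box of MSMO1 used CAT at all 3, and both boxes of SC5D mixed the codons, with 1 CAC among the 3.

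Total estimated counts per library ran from 4023956 to 11398835, and a member's own count ran from 53 (INSIG2) to 15504 (SCD). All values below are CPM, counts per 1000000 of the library total after scaling for library composition. The 100Q replicate 2, the shallowest library, stood apart from the other 5 on the first principal component, which held 30.9% of the variance over all tested genes, and 100Q replicate 1 stood apart on the second, with 22.7%. Of 7 genes listed as markers of this line, all were detected, among them VIM at 755 ± 24.1 CPM (SD, n = 3) in 0Q and NEFM at 186 ± 10.7 CPM (SD, n = 3). EYA1, another of the 7, had 16.4 ± 3.09 CPM in 0Q and 10.9 ± 1.54 in 100Q, which did not pass the test described below (edgeR adjusted p 0.987); its part in the results was not tested. The blood cell markers PTPRC, CD3E and MS4A1 were at 0 counts in all 6 libraries, and the endothelial marker PECAM1 and the fibroblast marker COL1A2 had at most 3 counts in any library.

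None of the 29 genes passed the test between 100Q and 0Q. The edgeR quasi-likelihood test with Benjamini-Hochberg adjustment gave the members adjusted p-values of 0.987 to 0.996, and over all tested genes it called 2 of 14905 (0.0134%). At an unadjusted p under 0.05 the test found 1 member, DHCR7, against 4.72% of all tested genes, and DHCR7 was also the only member whose 2 groups of libraries did not overlap, against 10.6% of all tested genes. Log2 fold changes, given throughout as 100Q minus 0Q, ran from -0.29 to 0.18 with 15 above 0 and 14 below. Their median was 0.0072, beside -0.0027 over all tested genes.

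The 95% interval of the fold change lay within 1.5-fold in either direction for 27 of the 29 members (93.1%), against 89.7% of the 9184 tested genes with a mean CPM in the members' range of 16.3 to 1291 and 58.2% of all tested genes. For all 29 it lay within 2-fold. PMVK and INSIG2, which are among the lowest in counts, had the intervals that reached past 1.5-fold.

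**Figure D1:**
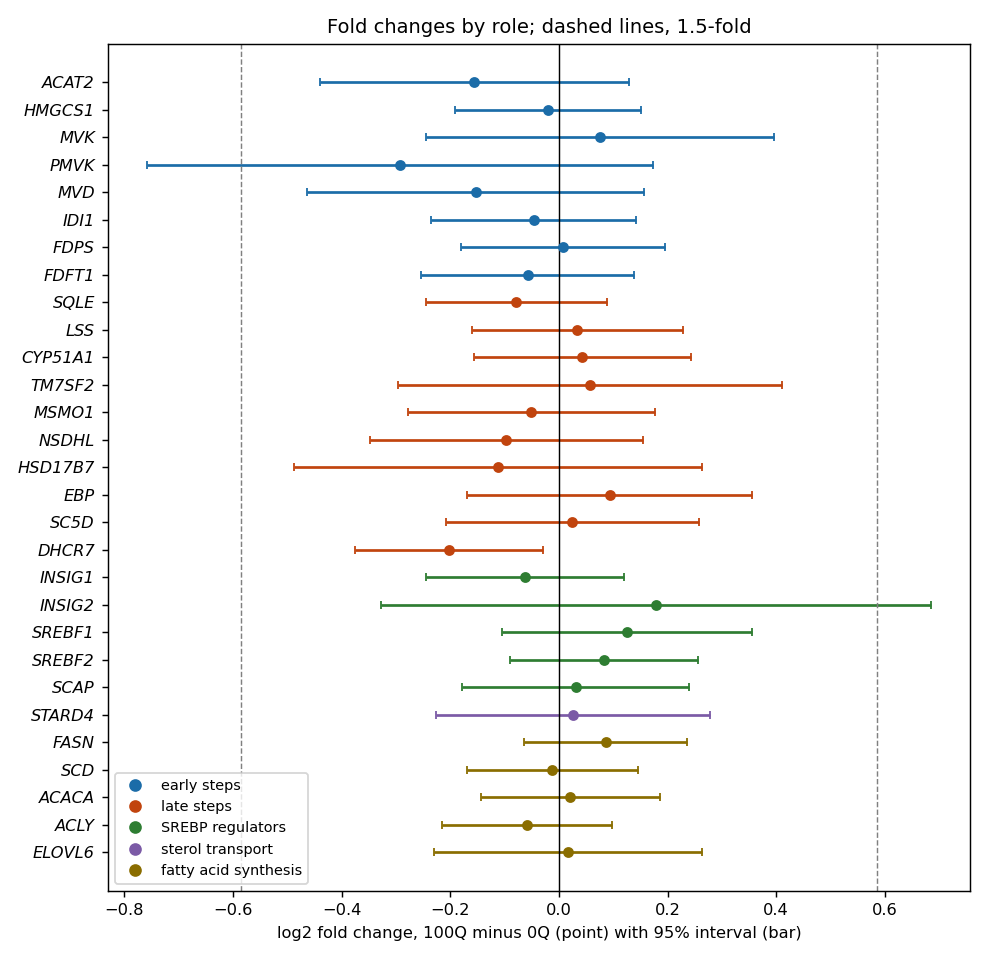
Log2 fold changes of the 29 genes, 100Q minus 0Q (horizontal axis), with points for the estimate, bars for the 95% interval and colours for the role in the pathway; dashed lines mark 1.5-fold. Every interval except that of DHCR7 crosses 0, and only those of PMVK and INSIG2 cross a dashed line.

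Among the early steps, none of the 8 genes passed the test, and 2 of 8 fold changes were above 0, with a median of -0.05 on the log2 scale and a range of -0.29 to 0.08. HMGCS1, which makes HMG-CoA and is a classical SREBP target, had 155, 157 and 155 CPM in the 0Q libraries and 160, 142 and 157 CPM in the 100Q libraries. The 0Q values of HMGCS1 lay inside the 100Q range, and its log2 fold change was -0.02 ± 0.08 (SE). FDPS, which makes farnesyl diphosphate, had 192 ± 3.44 and 194 ± 20.9 CPM in the respective groups (SD, n = 3, 0Q given first here and below). FDFT1, the squalene synthase that commits farnesyl diphosphate to sterol, had 140.5 ± 4.71 and 135 ± 15.5 CPM. IDI1, the isomerase that readies isoprene units for joining, had 151.5 ± 11.3 and 147 ± 10.5 CPM. For these 4 genes the group means differed by less than the larger SD of the groups.

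PMVK, the kinase that adds the second phosphate to mevalonate, had 22.4, 16.5 and 19.7 CPM in 0Q and 16.3, 21.0 and 11.8 CPM in 100Q. The groups overlapped, and the log2 fold change of PMVK, the lowest of the 29, was -0.29 ± 0.22 (SE) with an interval of -0.76 to 0.17. The PMVK estimate was -0.50 when 100Q replicate 2 was left out and -0.07 when 100Q replicate 3 was, and in the latter fit DHCR7, at -0.22, was lower. ACAT2, the cytosolic thiolase that joins acetyl-CoA units at the start of the pathway, had 86.4, 81.3 and 81.2 CPM in 0Q and 62.0, 96.1 and 67.9 CPM in 100Q. In ACAT2 the 100Q replicate 2 was the highest of the 6 libraries while the other two 100Q libraries were the lowest, so the within-group coefficient of variation was 3.54% in 0Q and 24.2% in 100Q. Its log2 fold change was -0.16 ± 0.13 (SE) with all libraries and -0.35 ± 0.11 without 100Q replicate 2, where the edgeR adjusted p was 0.995. Leaving out 100Q replicate 1 instead gave -0.04 for ACAT2, and leaving out 100Q replicate 3 gave -0.08. MVD, which makes isopentenyl diphosphate, had 47.6 ± 7.61 and 43.3 ± 5.82 CPM, and MVK, the mevalonate kinase, had 25.9 ± 2.80 and 27.2 ± 2.19 CPM (SD, n = 3).

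Among the late steps, none of the 10 genes passed the test, and 5 of 10 fold changes were above 0, with a median of -0.01 and a range of -0.20 to 0.09. DHCR7, the reductase that makes cholesterol from 7-dehydrocholesterol (chromosome 11, 71428193 to 71452868, minus strand), had 147, 140 and 143 CPM in the 0Q libraries and 119, 128 and 128 CPM in the 100Q libraries. Every 0Q library was above every 100Q library. The log2 fold change of DHCR7 was -0.20 ± 0.08 (SE), an interval of 0.771 to 0.98 on the fold scale, and the edgeR test gave an unadjusted p of 0.0248 and an adjusted p of 0.987. By unadjusted p it was number 334 of the 14905 tested genes. Without 0Q replicate 1 the unadjusted p of DHCR7 in the edgeR fit was 0.0625 (adjusted p 0.966), and without 100Q replicate 1 it was 0.0912 (adjusted p 0.992). In the other fits tried it stayed under 0.05. These values ran from 0.0059 (edgeR with a GC and length correction) to 0.0481 (edgeR without 0Q replicate 3). The smallest edgeR adjusted p of DHCR7 over the fits was 0.787, without 100Q replicate 3.

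The other late enzymes overlapped between the groups. SQLE, the squalene epoxidase, had 177, 189 and 174 CPM in 0Q and 174, 164 and 172 CPM in 100Q, and its log2 fold change was -0.08 ± 0.08 (SE). LSS, which closes the sterol ring to form lanosterol, had 143 ± 15.6 and 146 ± 3.65 CPM, and CYP51A1, the lanosterol demethylase, had 145 ± 5.0 and 149 ± 18.1 CPM (SD, n = 3). For LSS and CYP51A1 the group means differed by less than the larger SD. MSMO1, the oxidase that removes the methyl groups at carbon 4, had 67.3, 85.0 and 73.4 CPM in 0Q and 74.4, 72.3 and 71.4 CPM in 100Q. SC5D, the desaturase that acts just before DHCR7, had 102, 128 and 142 CPM in 0Q and 119, 128 and 131 CPM in 100Q. In MSMO1 and SC5D, the late enzymes with histidine boxes, the 0Q libraries held the lowest and the highest value of the 6. The same held for LSS and TM7SF2, late enzymes without a histidine box.

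EBP, an isomerase that moves a ring double bond, had 62.4 ± 6.01 and 67.3 ± 9.91 CPM. NSDHL, which works with MSMO1 in demethylation, had 44.3 ± 2.69 and 41.4 ± 1.14 CPM. TM7SF2, a sterol reductase, had 26.7 ± 5.62 and 27.9 ± 0.567 CPM, and HSD17B7, a ketosteroid reductase, had 19.1 ± 1.20 and 17.8 ± 2.54 CPM (SD, n = 3 in each group). The log2 fold changes of these 4 genes ran from -0.11 to 0.09.

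Summed over the genes of each role, the early steps took 822, 831 and 794 CPM in the 0Q libraries and 795, 834 and 744 CPM in the 100Q libraries. The late steps took 943, 994 and 954 CPM in 0Q and 942, 941 and 948 CPM in 100Q. The ratio of late to early was 1.18 ± 0.030 in 0Q and 1.20 ± 0.074 in 100Q (SD, n = 3), a difference smaller than either SD. All 29 members together took 5566 (100Q replicate 2) to 5816 CPM (100Q replicate 1) in a library.

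**Figure D2:**
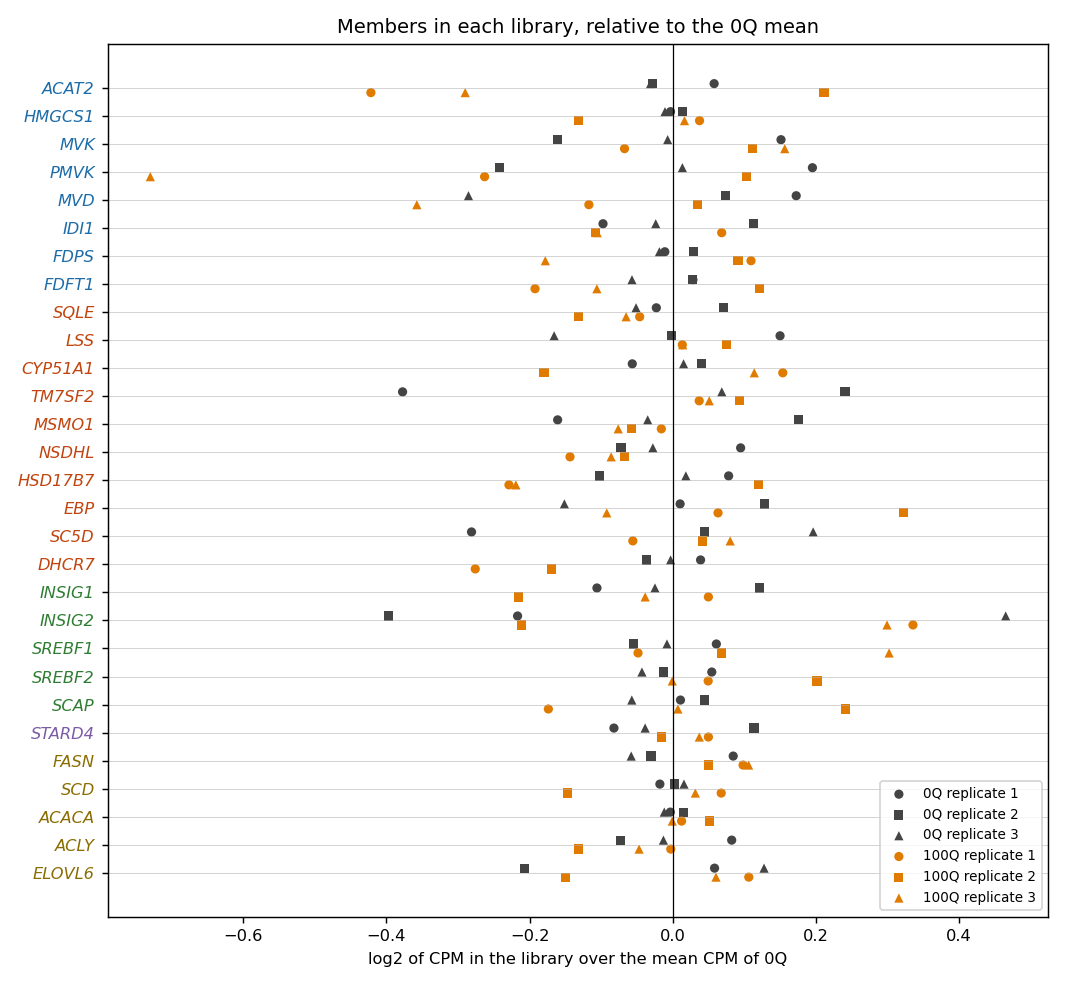
The level of each gene in each of the 6 libraries, as log2 of its CPM over the mean CPM of 0Q (horizontal axis), with grey for 0Q, orange for 100Q and marker shapes for replicates; label colours give the role. In DHCR7 the grey and orange symbols separate, with the orange square and triangle on the same spot, and in ACAT2, PMVK and INSIG2 the libraries of one group spread widely.

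Among the 5 regulators, none passed the test, and 4 of 5 fold changes were above 0, with a median of 0.08 and a range of -0.06 to 0.18. SREBF2 (chromosome 22, 41833105 to 41907306, plus strand), which encodes the SREBP that mainly drives sterol genes, had 202, 192 and 188 CPM in 0Q and 201, 223 and 194 CPM in 100Q. The groups overlapped, and the highest value came from 100Q replicate 2. SREBF1, which encodes the SREBP that mainly drives fatty acid genes, had 75.9, 70.1 and 72.4 CPM in 0Q and 70.4, 76.3 and 89.8 CPM in 100Q, and its log2 fold change was 0.13 ± 0.11 (SE). SCAP had 156, 159 and 148 CPM in 0Q and 137, 183 and 155 CPM in 100Q, so its 0Q libraries lay inside the 100Q range.

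INSIG1, which is itself an SREBP target, was the most abundant regulator, with 388, 454 and 410.0 CPM in 0Q and 432, 359 and 406 CPM in 100Q. Its log2 fold change was -0.06 ± 0.09 (SE), with an interval of -0.24 to 0.12. INSIG2 had 13.2, 11.7 and 21.2 CPM in 0Q and 19.4, 13.3 and 18.9 CPM in 100Q. It had the widest spread of the 29, a within-group coefficient of variation of 26.7%, and its log2 fold change of 0.18 ± 0.24 (SE) had an interval of -0.33 to 0.69. Leaving out 0Q replicate 2 gave 0.01 for INSIG2, and leaving out 0Q replicate 3 gave 0.48. STARD4, which carries sterol between membranes, had 43.0 ± 3.11 and 43.7 ± 1.05 CPM (SD, n = 3).

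Among the 5 fatty acid genes, none passed the test, and 3 of 5 fold changes were above 0, with a median of 0.02 and a range of -0.06 to 0.09. FASN, the fatty acid synthase, had 974, 900 and 883 CPM in 0Q and 984, 952 and 989 CPM in 100Q, and its log2 fold change was 0.09 ± 0.07 (SE) with an interval of -0.06 to 0.24. In FASN the 0Q replicate 1 lay inside the 100Q range and the other two 0Q libraries lay below it. SCD, the desaturase that makes oleate and palmitoleate, had 1281, 1299 and 1311 CPM in 0Q and 1359, 1171 and 1325 CPM in 100Q. The 3 values of 0Q lay inside the 100Q range, and the log2 fold change of SCD was -0.01 ± 0.07 (SE).

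ACACA, the carboxylase that makes malonyl-CoA, was the steadiest of the 29, with a within-group coefficient of variation of 1.51%, at 146, 148 and 145 CPM in 0Q and 147, 152 and 146 CPM in 100Q. ACLY, which supplies cytosolic acetyl-CoA to both pathways, had 614 ± 33.6 and 589 ± 26.6 CPM, and ELOVL6, the elongase that turns palmitate into stearate, had 67.7 ± 8.03 and 68.2 ± 6.29 CPM (SD, n = 3). The summed CPM of the 5 genes was 3043 ± 69.3 in 0Q and 3065 ± 149.5 in 100Q. Their ratio to the 18 sterol enzymes was 1.71 ± 0.067 in 0Q and 1.77 ± 0.12 in 100Q, which differed by less than the SD of either group.

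Compared between genes per kilobase of canonical transcript, the members spanned a wide range of levels. SCD was highest, at 247 CPM per kb in 0Q and 245 in 100Q, followed by INSIG1 (143 and 137), ACLY (143 and 137), FDPS (135 and 137) and FASN (109 and 115). INSIG1, ACLY and FDPS did not differ from each other beyond their spread. INSIG2 was lowest at 4.31 and 4.82 CPM per kb, below MVK (9.15 and 9.61) and STARD4 (9.28 and 9.44), and the latter 2 did not differ beyond their spread. The early steps spanned 9.15 to 135 CPM per kb in 0Q and the late steps 12.5 to 60.8.

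**Figure D3:**
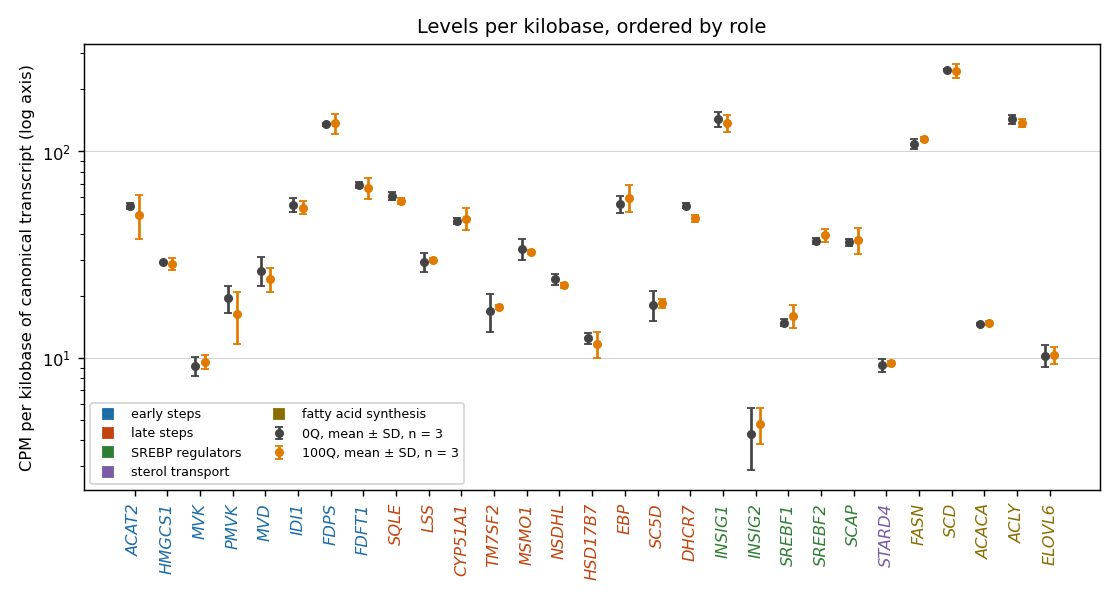
Mean level of each gene in CPM per kilobase of canonical transcript (vertical log axis) in 0Q (grey) and 100Q (orange), with bars for the SD over 3 libraries. SCD is highest at 247 and 245, INSIG2 lowest at 4.31 and 4.82, and the bars of the 2 groups overlap in every gene except DHCR7.

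The library that stood apart over all genes was at an extreme in the members about as often as in all tested genes. The 100Q replicate 2 was the highest or the lowest of the 6 libraries for 14 of the 29 members (48.3%), against 46.2% of all tested genes. It was lowest for HMGCS1, IDI1, SQLE, CYP51A1, INSIG1, SCD and ACLY, and highest for ACAT2, FDFT1, HSD17B7, EBP, SREBF2, SCAP and ACACA. Without it, 3 of 29 members, ACAT2, PMVK and DHCR7, had an unadjusted p under 0.05 in the edgeR fit, against 722 of the 15525 genes tested in that fit (4.65%). All 3 had lower estimates in 100Q, and none passed the adjusted test.

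Of 39 further genes of the pathway that were tested, none passed, against 0.0134% of all tested genes. None had an unadjusted p under 0.05 in the edgeR test, against 4.72%, and 19 fold changes were above 0. The groups did not overlap in 2 of the 39, VLDLR and FADS1, against 10.6% of all tested genes. Among 11 genes of sterol uptake, lysosomal handling and storage, the median log2 fold change was 0.06, with 7 above 0. VLDLR, a lipoprotein receptor, had 13.2, 12.3 and 14.1 CPM in 0Q and 14.8, 22.5 and 14.2 CPM in 100Q. Its groups did not overlap, but 2 of the 100Q libraries lay within 1 CPM of the highest 0Q library, and the log2 fold change was 0.36 ± 0.22 (SE). STARD3, a sterol carrier of late endosomes, had a log2 fold change of 0.16 ± 0.12 (SE).

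Among 4 genes of efflux and the LXR receptors the median was -0.12, with 2 above 0, and the exporters ABCG1 and ABCA1 had log2 fold changes of -0.29 ± 0.26 and -0.39 ± 0.46 (SE). Among 7 genes of SREBP cleavage and sterol-regulated degradation the median was -0.07, with 2 above 0, and the ubiquitin ligase RNF139 had -0.17 ± 0.13 (SE). Among 9 further fatty acid genes the median was 0.03, with 6 above 0. FADS1, a desaturase of polyunsaturated fatty acids, had 134, 129.6 and 129.6 CPM in 0Q and 113, 108 and 126 CPM in 100Q, with no overlap between the groups; the log2 fold change was -0.18 ± 0.09 (SE), and the elongase ELOVL5 had 0.10 ± 0.09. Among 8 genes of the branches to ubiquinone, dolichol and prenylation the median was -0.08, with 2 above 0, and PDSS1 and FNTA had -0.27 ± 0.17 and -0.13 ± 0.11 (SE). The edgeR adjusted p of VLDLR, FADS1 and PDSS1 was 0.987 in each case.

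The coding sequences of the pathway differed widely in how many codons the queuosine tRNAs read. Codons for tyrosine, histidine, asparagine and aspartate made up 9.86% (SREBF1) to 20.8% (MSMO1) of a member's codons, with a median of 14.5%, beside 13.7% over tested genes. The late steps had a median of 15.5%, with 8 of 10 genes above the median of tested genes, and the regulators had 11.1%, with 0 of 5 above it. Of the histidine-box genes, 3 ranked near the top of the tested genes, with MSMO1 and SC5D at percentile 99.2 and SCD at percentile 98.6. HMGCS1, with no histidine box, stood at percentile 97.0.

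The ending of these codons, C or T, varied more. The C-ending share ran from 23.0% in MSMO1 (percentile 1.37) and 25.5% in HMGCS1 (percentile 2.90) to 79.5% in DHCR7 (percentile 87.0) and 84.3% in FASN (percentile 92.9), beside a median of 55.6% over tested genes. The 18 members with at least 50% C-ending codons had a median log2 fold change of 0.01, with 10 above 0, and the 11 members under 50% had -0.02, with 5 above 0. MSMO1 and HMGCS1, rich in T-ending codons, had log2 fold changes of -0.05 and -0.02, and DHCR7 and FASN, rich in C-ending codons, had -0.20 and 0.09. Across genes, the Spearman correlation of the fold change with the C-ending share was 0.13 over the 29 members and 0.14 over 12752 tested genes, and with the share of queuosine codons it was -0.19 and -0.09. These are descriptions across genes, which share the same 6 libraries and differ in base composition.

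**Figure D4:**
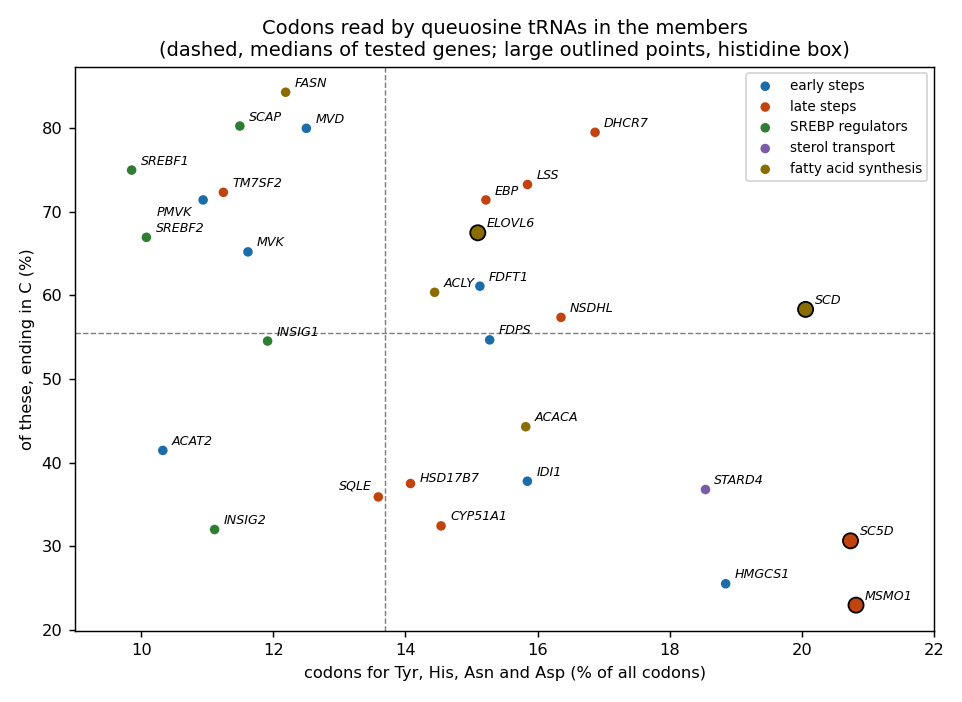
Share of a member's codons for tyrosine, histidine, asparagine and aspartate (horizontal axis, percent) against the share of these that end in C (vertical axis, percent), with dashed lines at the medians of tested genes and large outlined points for genes with a histidine box. MSMO1 and SC5D lie far right and low, at 20.8% and 20.7% of codons, FASN lies high and left, and all 5 regulators lie left of the dashed vertical line.

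Promoters of the pathway were read from RefSeq (GRCh38.p14) as windows of 250 bases before to 50 after the start, which matched 25 of the 29 genes. The windows were searched on both strands for CCAAT (bound by NF-Y), GGGCGG (bound by Sp1), CACGTG (the E-box) and TCACNCCAC (a form of the sterol response element). A gene was counted if any of its windows held the motif. CCAAT was found for 19 of 25 member genes (76.0%), beside 43.5% of 10908 tested genes, and GGGCGG for 24 of 25 (96.0%), beside 78.3%. CACGTG was in 4 of 25 (16.0%; INSIG1, LSS, SC5D and SCAP), beside 12.6%. TCACNCCAC was in SREBF2 alone (4%), beside 1.34%. Over all 27305 genes with a RefSeq window the shares, counted in the same way, were 39.7%, 48.3%, 8.77% and 1.39% in that order. Counted per single window instead, over all 35116 windows, they were 34.6%, 45.0%, 7.26% and 1.13%. A match describes the letters of the window and not a bound site. The stretches of SREBF2, which holds the sterol response element, and MSMO1, which holds 4 CCAAT boxes, are printed 5′ to 3′ on the gene's strand. MVK and NSDHL hold 5 CCAAT boxes each and are not printed. The SREBF2 stretch runs up to the base before the start, and the MSMO1 stretch ends at base 25 before it. Matches on either strand that end within the stretch are in capitals. ATTGG and CCGCCC are the reverse complements of CCAAT and GGGCGG. A further GGGCGG match of SREBF2, on the opposite strand, crosses the start and is not in capitals.
SREBF2, chr22:41832967-41833104, plus strand: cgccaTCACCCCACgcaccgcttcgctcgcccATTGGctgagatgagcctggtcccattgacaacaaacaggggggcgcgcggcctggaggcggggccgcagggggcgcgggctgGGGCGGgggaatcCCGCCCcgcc
MSMO1, chr4:165327419-165327644, plus strand: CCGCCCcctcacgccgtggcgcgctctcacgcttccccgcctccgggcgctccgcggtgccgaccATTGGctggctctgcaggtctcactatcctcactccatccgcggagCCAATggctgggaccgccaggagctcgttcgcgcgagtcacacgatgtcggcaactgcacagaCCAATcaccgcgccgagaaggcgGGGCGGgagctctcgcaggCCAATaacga
The fold changes of these 2 genes were 0.08 ± 0.08 (SREBF2) and -0.05 ± 0.11 (MSMO1) on the log2 scale (SE).

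Some members share exon sequence with neighbours, which bears on how far their counts are their own. Exons of 15 members overlap those of another gene, and whether counting used the strand is not given in the sources used here. In 6 members the neighbour had at least 10 CPM: TCP1 and SOD2 at ACAT2, MMAB at MVK, RUSC1-AS1 at FDPS, AKAP9 at CYP51A1 and RAI1 at SREBF1 on the opposite strand, and VPS51 at TM7SF2 on the same strand. TCP1 was the largest, at 462 CPM beside 79.1 CPM for ACAT2. The log2 fold changes of these neighbours ran from -0.15 ± 0.13 (AKAP9) to 0.41 ± 0.17 (RUSC1-AS1, SE). Pseudogenes named after IDI1, FDPS, CYP51A1 and SCD were at or near 0, and a pseudogene of HSD17B7, HSD17B7P2, had 1.61 CPM at one locus, 8.74% of the level of HSD17B7, and 0.454 CPM at another, 2.46%. At the first of these loci the log2 fold change was 2.20 ± 0.81 (SE), from 0 to 22.3 estimated counts per library. Whether neighbours or pseudogenes moved the counts of members was not tested. DHCR7 has no exon in common with another annotated gene; the opposite-strand gene ENSG00000254682, which crosses its locus, had 8.53 CPM.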

How the data were processed

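HEK293T mRNA libraries (3 of 0Q, 3 of 100Q) were compared. The deposited table holds estimated counts per gene; FastQC, STAR and RSEM are named in the submitters' processing notes without versions, and the build was hg38, per the series' design text. The gene annotation, the strand setting and any use of molecular identifiers are not stated there. Estimated (expected) counts, in which RSEM can split reads between similar genes, were rounded to whole numbers. Genes passing edgeR's filterByExpr with its minimum count of 10 (14905) were fitted with edgeR 4.0.16 in R 4.3.3 (TMM, quasi-likelihood test, Benjamini-Hochberg threshold 0.05), with all 6 libraries and no covariate. CPM uses TMM-scaled library totals. Depth in estimated counts, replicates 1 to 3, was 7264638, 8035251 and 7604515 for 0Q, and 5219707, 4023956 and 11398835 for 100Q. Coding sequences and coordinates come from GENCODE 44, to which 62541 of 63086 identifiers matched. The code was tested on simulated data. DESeq2 1.42.0, limma 3.58.1 (voom), other normalizations and filters, a GC and length correction, a replicate block and leaving out each library were tried. All members are named, with, per further list, the 2 genes of smallest p and any with an unadjusted p under 0.05. A gene that this rule names is not reported here. Members and lists were chosen with earlier results of these data known. No batch is named in the labels.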

Additional observations from a re-analysis of the deposited data

How the results depend on the processing

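No member and no further pathway gene was called in any of 14 other fits, and the smallest adjusted p of a member in them was 0.787, without 100Q replicate 3. The number of genes called over the whole table, 2 as reported, was 71 with no filter on low counts, 1 with a mean count of at least 50, 14 with DESeq2, 1 with limma-voom, 4 with the GC and length correction and 0 to 6 when 1 library was left out. The labels do not say whether equal replicate numbers share a culture. Deviations of same-numbered libraries from their group means correlated at 0.0014, -0.020 and 0.081, and only replicate 3 correlated best with its own number. With means of 3 libraries this cannot exclude a pairing. The replicate block called 3 genes. Leaving out 1 library gave 0 to 3 members with an unadjusted p under 0.05, beside 3.57% to 6.23% of all genes tested in those fits, an early-step median of -0.091 to -0.030, a fatty acid median of -0.030 to 0.048 (-0.015 with the GC and length correction), a late-step median of -0.082 to 0.038 and a regulator median of 0.022 to 0.097; the last was 0.035 with the GC and length correction. Direction held for 11 members under every alternative and for 21 under those that keep all libraries, and the largest reported log2 fold change among members that turned was 0.09. With the GC and length correction HMGCS1 (0.012), MSMO1 (0.011), FDPS (-0.0030), LSS (-0.014), SCAP (-0.040), FASN (-0.036) and ACACA (-0.0072) turned; FDPS also turned with no filter (-0.0018) and limma-voom (-0.019), and SCD with library size only (0.0064). With 1 library left out the ranges were -0.016 to 0.13 for CYP51A1, -0.020 to 0.19 for EBP, -0.079 to 0.085 for ELOVL6, -0.15 to 0.0025 for FDFT1, -0.047 to 0.10 for FDPS, -0.052 to 0.025 for HMGCS1, -0.11 to 0.012 for IDI1, -0.12 to 0.0038 for INSIG1, -0.043 to 0.11 for LSS, -0.13 to 0.044 for MSMO1, -0.00066 to 0.16 for MVK, -0.098 to 0.13 for SC5D, -0.076 to 0.12 for SCAP, -0.055 to 0.048 for SCD, -0.015 to 0.084 for STARD4 and -0.099 to 0.19 for TM7SF2. The cause was not tested.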
